A study of Caenorhabditis elegans with 27 samples.

Results

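The genes described here are the 5 protein-coding genes of Caenorhabditis elegans mitochondrial DNA that encode subunits of respiratory complexes III, IV and V. They were chosen by name, as the rows whose symbol is ctb-1, ctc-1, ctc-2, ctc-3 or atp-6, and they are 5 of the 12 protein-coding mitochondrial genes and 5 of the 46738 genes in the table. Poly(A) RNA of whole worms was sequenced in 27 libraries, 3 for each of 9 feeding groups. Per the series design, every group was of N2 worms with the reporter hsp-6::GFP. They were fed RNAi bacteria of the HT115 strain from the egg stage at 20 °C and collected on day 2 as L4 larvae or young adults. The groups received the empty vector, cbp-1, atfs-1, cco-1 or mrps-5 clones, or cco-1 or mrps-5 mixed with cbp-1 or with atfs-1. The cco-1 or mrps-5 clone made up 50% of the bacteria, and the rest was 50% empty vector, 25% cbp-1 with 25% empty vector, or 50% atfs-1. The labels give no share for cbp-1 or atfs-1 fed alone. The labels do not say that the 3 libraries of a group came from separate cultures, so the p-values reflect library-to-library spread, which may be technical.

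Mitochondrial DNA of the worm carries genes for subunits of the respiratory chain and ATP synthase, which are transcribed and translated inside the organelle. Cytochrome b (CTB-1) is the mitochondrially encoded core of complex III, which passes electrons from ubiquinol to cytochrome c. CTC-1, CTC-2 and CTC-3 form the catalytic core of complex IV, cytochrome c oxidase, which passes them on to oxygen. ATP-6 is the subunit of complex V, ATP synthase, that forms part of its proton channel. The remaining subunits of these complexes are made from nuclear genes and imported. One of them is cco-1 (also named cox-5B), a nuclear subunit of complex IV. mrps-5 encodes a protein of the mitochondrial ribosome, which translates the mitochondrial messages. The protein of cbp-1 is a transcriptional coactivator and histone acetyltransferase of the CBP and p300 family. ATFS-1 is the transcription factor best known for the mitochondrial unfolded protein response.

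All 5 genes lie on the plus strand of MtDNA in the WBcel235 build, each as a single exon. atp-6 (WBGene00010960) spans positions 2634 to 3235, and ctb-1 (WBGene00000829) spans 4504 to 5621. ctc-3 (WBGene00010962) lies at 5678 to 6449. ctc-1 (WBGene00010964), the longest with 1602 bases, lies at 7827 to 9428, and ctc-2 (WBGene00010965) follows at 9649 to 10348. ctc-1 and ctc-2 are thus neighbours among the protein-coding genes, and ctb-1 and ctc-3 are as well.

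Gene counts summed to 20672073 to 30938572 per library, and the 5 genes held 0.347% to 1.002% of them (median 0.598%). They made up 85.1% to 88.2% of all counts for the 12 mitochondrial messages. Levels of single genes below are CPM, the share of a gene in the gene counts of its library, scaled by TMM factors. Summed marker levels are CPM without these factors. Per kilobase of exon, the median level over the 27 libraries was highest for ctc-1 at 1722 CPM, followed by ctc-3 at 1207, ctb-1 at 1029, atp-6 at 999 and ctc-2 at 745. All were above the 7 complex I genes, of which nduo-4 was highest with a median of 248 CPM per kilobase.

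The libraries fell into 2 sets by the level of rpl-37, a gene of the cytosolic ribosome, split at its widest gap between libraries. The empty vector and cbp-1 libraries and replicate 1 labelled atfs-1 had at most 3.38 log2 CPM of it and form set A, and the other 20 libraries had at least 5.41 and form set B. The labels name no such batch. cco-1, mrps-5 and atfs-1 against the empty vector therefore cross the sets, and only the 3 libraries labelled atfs-1 lie in both. A term for the set was added to the fit, and it rests on these 3 libraries, with replicate 1 alone in set A. In this fit set B was higher than set A for ctc-1 by 0.83 on the log2 scale, for ctc-3 by 0.41 and for ctb-1 by 0.37. The set effect for atp-6 was 0.21 and for ctc-2 0.19. These values rest on 1 library of set A and are no test of the sets. Over 16332 genes the set effect and exon length had a Spearman rho of 0.36, and over the 12 mitochondrial messages one of 0.41. Both are given as a description, and the part of length in the set effect was not tested. The cco-1 level was 169 ± 1.9 CPM in cco-1 worms and 302 ± 8.6 with the empty vector (SD, n = 3), a comparison that crosses the sets. The libraries labelled atfs-1 had 309 CPM of it in set A and 191 and 198 in set B. Within set B, cco-1 worms lay below mrps-5 worms, at 215 ± 7.4 CPM, without overlap, by a difference that did not pass (edgeR adjusted p = 0.0715). The difference passed between the cbp-1 mixtures, at 0.46 on the log2 scale (edgeR adjusted p = 0.0150). It also passed in the mean of the mrps-5 groups against that of the cco-1 groups, at 0.36 (adjusted p = 4.31e-04). Between the atfs-1-labelled mixtures it was 0.29 and did not pass (adjusted p = 0.112). mrps-5 was 83.2 ± 3.4 CPM in mrps-5 worms and 107 ± 1.7 in cco-1 worms. The atfs-1 read level was not lower in any group labelled atfs-1 than in its comparison group. Its log2 differences from the empty vector, cco-1 and mrps-5 were 0.22, 0.18 and 0.05, the last not called, so these groups are named by their labels throughout.

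**Figure D1:**
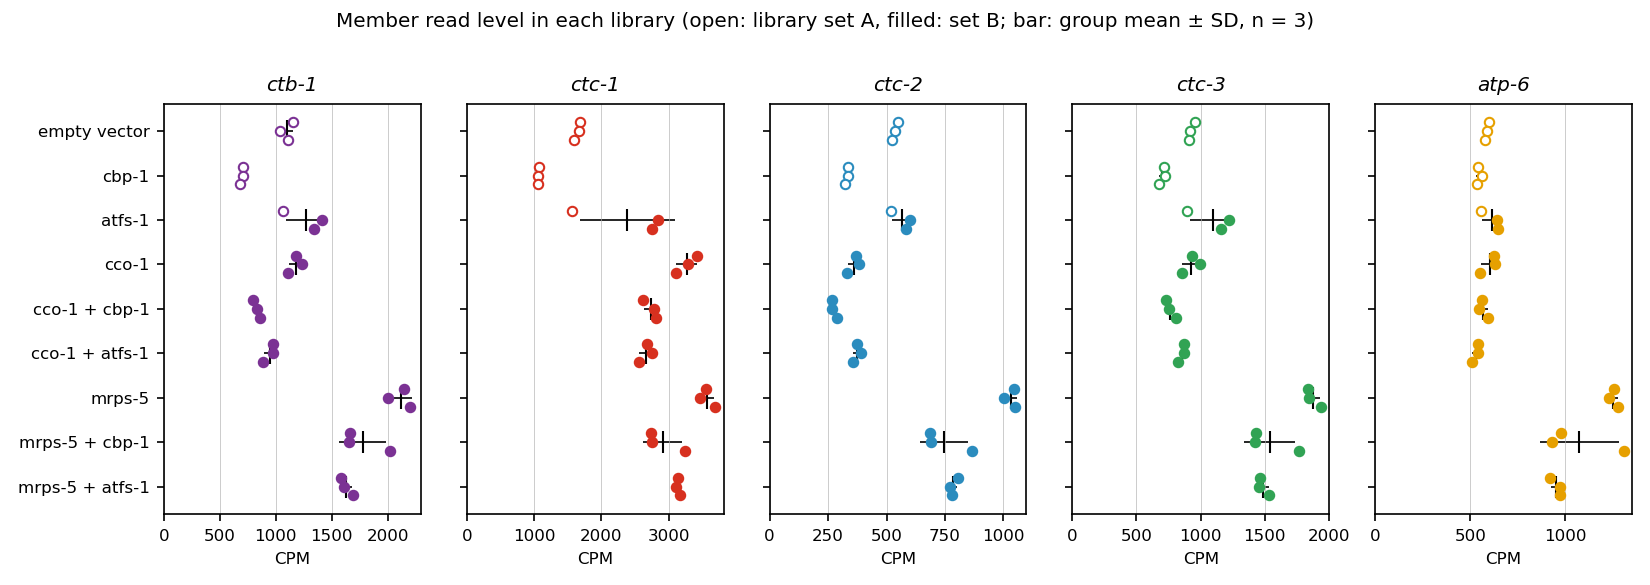
Level (TMM-scaled CPM, horizontal axis from 0) of ctb-1, ctc-1, ctc-2, ctc-3 and atp-6 in each of the 27 libraries, by feeding group; points are libraries (open, set A; filled, set B) and bars the group mean ± SD of 3 libraries. The 3 groups fed mrps-5 lie to the right of the 3 fed cco-1 for ctb-1, ctc-2, ctc-3 and atp-6. For ctc-1 the mrps-5 group lies apart from the next, cco-1, and the other neighbours among the 6 groups overlap.

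The comparison of mrps-5 with cco-1 sets a clone against mitochondrial translation beside a clone against complex IV, and both groups lie in library set B. Of the 5 genes, 4 were higher in mrps-5 worms and 1 did not pass the test, beside 6.74% of the 16435 genes tested that were called higher (11.8% in either direction). The median difference of the 5 was 1.02 on the log2 scale, against -0.01 for all genes.

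ctb-1 had 2149, 2007 and 2202 CPM in the 3 mrps-5 libraries and 1184, 1237 and 1111 in the 3 cco-1 libraries. The groups did not overlap, and the log2 difference was 0.85 ± 0.09 (SE; edgeR quasi-likelihood test, Benjamini-Hochberg adjusted p = 2.24e-07).

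ctc-2 differed most among the 5. It had 1046, 1002 and 1048 CPM with mrps-5 and 369.6, 380.1 and 332.4 with cco-1, a ratio of means of 2.86. The log2 difference was 1.52 ± 0.07 (edgeR adjusted p = 8.50e-14).

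ctc-3 had 1841, 1849 and 1942 CPM with mrps-5 and 931.4, 994.5 and 852.4 with cco-1. The 3 mrps-5 values were all above the 3 cco-1 values, by 1.02 ± 0.09 on the log2 scale (edgeR adjusted p = 4.46e-08).

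ctc-1 had 3563, 3468 and 3686 CPM with mrps-5 and 3419, 3289 and 3104 with cco-1. The ranges were adjacent without overlapping, and the log2 difference of 0.13 ± 0.14 did not pass (edgeR adjusted p = 0.697). With only the 6 libraries of these groups in the fit, the difference was 0.13 ± 0.03 and passed (adjusted p = 0.00210). The full fit shares its spread with the libraries labelled atfs-1, whose ctc-1 values were 1571, 2837 and 2757 CPM, the first of them in set A.

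atp-6 had 1258, 1228 and 1278 CPM with mrps-5 and 623.5, 632.5 and 549.3 with cco-1. The groups lay apart, with a ratio of means of 2.09 and a log2 difference of 1.06 ± 0.09 (edgeR adjusted p = 2.16e-08).

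The same order between arms held where a second clone was mixed in, again for 4 of the 5 genes. With cbp-1 in both arms, ctb-1, ctc-2, ctc-3 and atp-6 were higher in the mrps-5 mixture by 1.097, 1.45, 1.01 and 0.92 on the log2 scale, beside 5.35% of genes called higher. ctc-1 differed by 0.09 ± 0.14 (edgeR adjusted p = 0.757), and its ranges overlapped. In the libraries labelled with atfs-1 in both arms, the 4 genes were higher by 0.79, 1.07, 0.79 and 0.85, beside 9.25% of genes called higher. ctc-1 differed there by 0.24 ± 0.14 (edgeR adjusted p = 0.283). Its ranges did not overlap, at 3144 ± 29.1 and 2665 ± 100 CPM, and it passed with only the compared groups in the fit. In the average over the 3 backgrounds the log2 differences were 0.91 for ctb-1, 1.35 for ctc-2, 0.94 for ctc-3 and 0.94 for atp-6, with 25.1% of genes called in either direction. ctc-1 averaged 0.15 ± 0.08 (edgeR adjusted p = 0.179).

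The other mitochondrial transcripts allow the same comparison. Among the 7 complex I genes, 3 were higher with mrps-5 than with cco-1 alone, beside 6.74% of all genes. In the cbp-1 mixtures 5 were higher, beside 5.35%, and in the atfs-1-labelled mixtures 4, beside 9.25%. In the average 6 of 7 were higher, beside 25.1% of all genes called in either direction. nduo-1, nduo-2 and nduo-4 were called in each of these. Their log2 differences with no second clone were 0.59, 0.78 and 0.99. Of the ribosomal RNA genes, MTCE.7 (small subunit) was higher by 1.52 ± 0.11 (edgeR adjusted p = 6.88e-10), and MTCE.33 (large subunit) differed by 0.05 (adjusted p = 0.913). Both are read from poly(A)-selected RNA at 16.6 to 60.6 CPM in these groups. In gene order, the ctc-1 value lies between the higher values of nduo-4 and ctc-2.

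**Figure D2:**
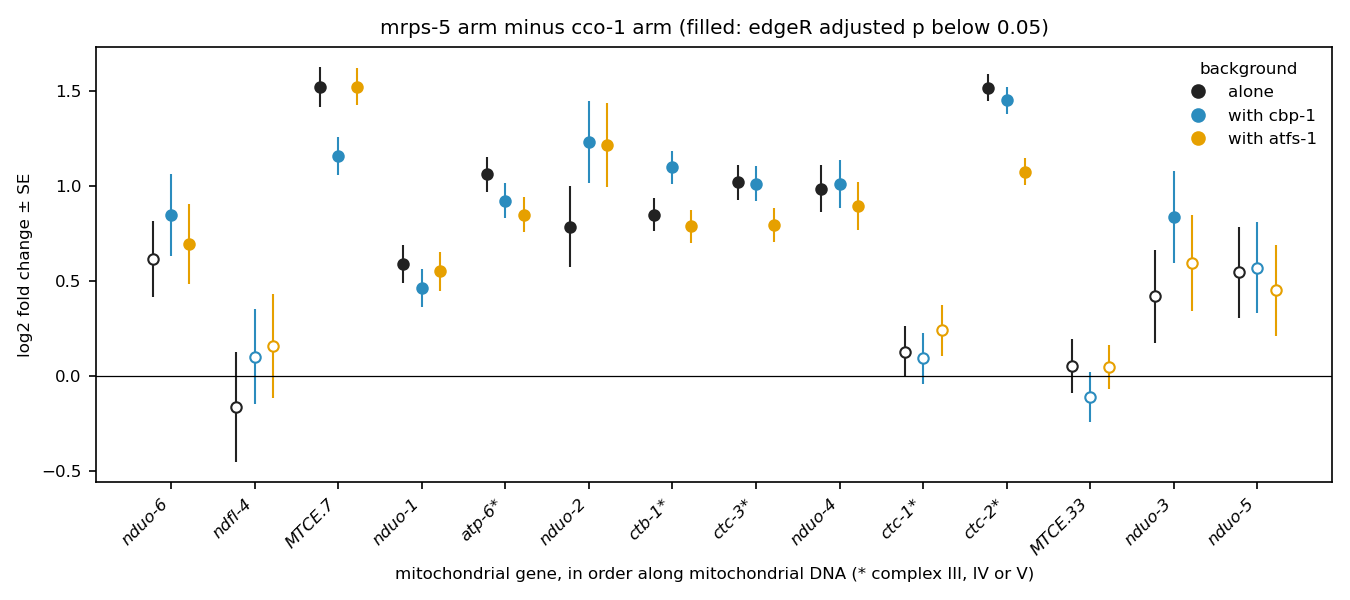
Difference between the mrps-5 and cco-1 arms (log2 fold change ± SE, vertical axis) of 12 mitochondrial messages and 2 ribosomal RNAs in the order of the genes along mitochondrial DNA, with no second clone (black), with cbp-1 (blue) and labelled with atfs-1 (orange); filled points passed an edgeR adjusted p of 0.05. ctb-1, ctc-2, ctc-3 and atp-6 are at 0.79 or above in every background, whereas ctc-1 lies between 0.09 and 0.24.

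Other measures differed between these arms too. The summed level of 10 intestinal marker genes was 48841 ± 908 CPM in mrps-5 and 30204 ± 1189 CPM in cco-1 worms. The 10 body wall muscle markers were at 9522 ± 101 and 9804 ± 242 CPM, and the 13 germline markers at 3391 ± 28.9 and 3516 ± 38.5. These sums are without TMM factors, which were 0.953 to 0.960 in mrps-5 and 1.006 to 1.026 in cco-1 libraries. The order of the groups in the muscle and germline sums therefore depends on the scaling. None of the marker genes was at 0 in either group. Reads without a unique alignment were 12.7% and 8.19% of reads. The intestinal list includes the yolk genes vit-2 and vit-6, so its sum need not follow the amount of intestine. In RNA of whole worms, cell number, RNA per cell and worm stage cannot be told apart in such a sum. The part of these measures in the differences of the 5 genes was not tested.

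Within a library, ratios of counts between members need no scaling between libraries, and they show that the 5 genes did not differ by one common factor. Averaged over the 3 backgrounds, 7 of the 10 pairs differed between the mrps-5 and cco-1 arms (exact two-sided permutation of arm labels within background, 18 libraries, adjusted p = 0.000357 for each; the unadjusted p of 0.00025 is the smallest the 8000 assignments can give). These 7 were every pair with ctc-1 or ctc-2. Between ctb-1, ctc-3 and atp-6 the log2 ratios differed by -0.03, -0.03 and 0.00069, with adjusted exact permutation p of 0.429, 0.61 and 0.982. These averages join differences of opposite sign, so a value near 0 does not show a constant ratio. The log2 ratio of ctb-1 to atp-6 differed by -0.21 with no second clone and by 0.18 with cbp-1, and that of ctb-1 to ctc-3 by -0.17 and 0.087. With no second clone the ctb-1 to atp-6 ratio ran from 1.63 to 1.72 in mrps-5 and from 1.90 to 2.02 in cco-1 libraries, and with cbp-1 from 1.54 to 1.78 and from 1.43 to 1.53. The libraries of the arms did not overlap in either background, and these single-background differences were not tested.

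The ratio of ctc-1 to ctc-2 counts moved most, with a log2 difference of -1.19 between the arms. It was 9.08 ± 0.37 under cco-1 RNAi, 3.46 ± 0.05 under mrps-5 RNAi and 3.07 ± 0.02 with the empty vector (SD, n = 3). The empty vector lies in library set A and both others in set B, and the libraries labelled atfs-1 had 3.04 in set A and 4.72 and 4.74 in set B. The order of the empty vector and mrps-5 in this ratio therefore cannot be told apart from the sets. Mixed with cbp-1 it was 10.02 ± 0.43 in the cco-1 arm and 3.92 ± 0.14 in the mrps-5 arm, and labelled with atfs-1 it was 7.15 ± 0.07 and 4.0 ± 0.09. Each cco-1 group thus lay above each mrps-5 group. ctc-1 made up 51.6% ± 1.1 of the summed counts of the 5 genes under cco-1 RNAi, against 36.2% ± 0.09 under mrps-5 RNAi. ctc-2 made up 5.69% ± 0.12 and 10.5% ± 0.14.

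**Figure D3:**
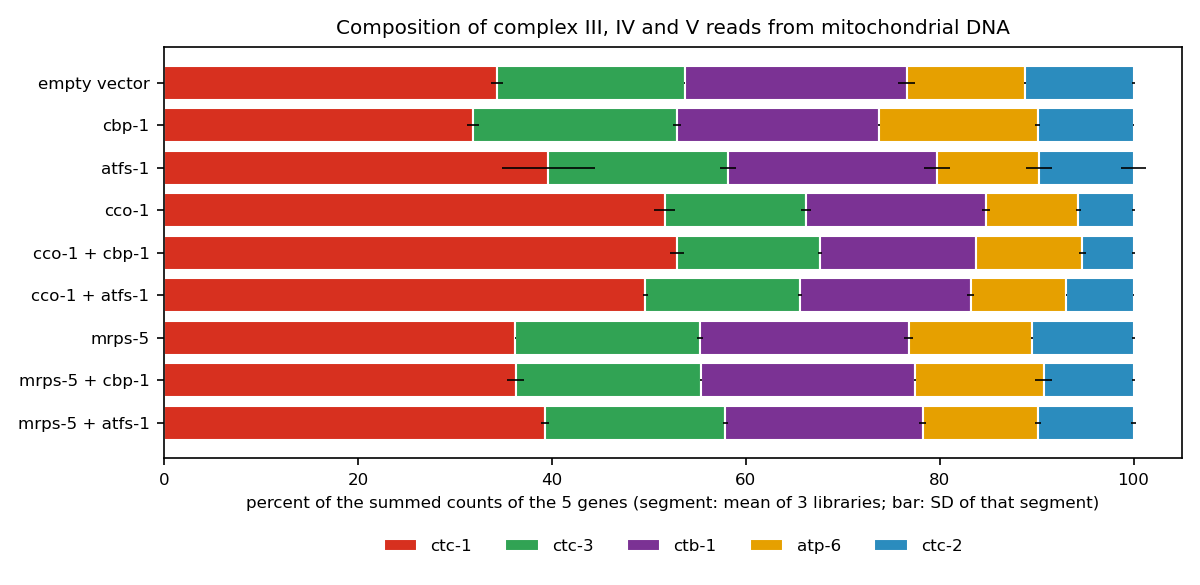
Share of each gene in the summed counts of ctc-1, ctc-3, ctb-1, atp-6 and ctc-2 (percent, horizontal axis from 0), by group; segments are means of 3 libraries and bars the SD of each segment. ctc-1 takes 49.6% to 52.9% in the 3 groups fed cco-1 and 36.2% to 39.3% in the 3 fed mrps-5.

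Against the empty vector, which has 1151, 1041 and 1109 CPM of ctb-1, all 5 genes were higher in mrps-5 worms. The log2 changes were 0.95 for ctb-1, 1.12 for ctc-1, 0.94 for ctc-2, 1.01 for ctc-3 and 1.09 for atp-6, beside 19% of genes called higher. This comparison crosses the library sets. With the set term, which rests on the 3 libraries labelled atfs-1, the changes were 0.58, 0.28, 0.75, 0.60 and 0.88, and all 5 were still called. The ctc-1 change was thus the one that moved most (edgeR adjusted p = 0.0454 with the term).

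In cco-1 worms against the empty vector, 1 of the 5 was called higher and 1 lower, beside 23.1% and 22.2% of genes. ctc-1 had 1685, 1662 and 1599 CPM with the empty vector, so cco-1 worms were higher by 0.99 ± 0.14 on the log2 scale (edgeR adjusted p = 7.49e-06). With the set term this was 0.16 ± 0.09 and did not pass (adjusted p = 0.282). ctc-2 had 549.1, 537.5 and 521.8 CPM with the empty vector, above all cco-1 libraries, and fell by 0.57 ± 0.07 (adjusted p = 5.61e-07). The ctc-2 difference was -0.77 with the set term and was still called (adjusted p = 1.92e-04). ctb-1, ctc-3 and atp-6 differed by 0.10, -0.01 and 0.03 and overlapped the empty vector. With the set term they were at -0.27, -0.42 and -0.18, of which only ctc-3 was called (edgeR adjusted p = 0.0293).

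Libraries labelled atfs-1 had 1 of 5 genes called higher against the empty vector, beside 5.54% of genes. This was ctc-1, with a log2 change of 0.53 ± 0.14 (edgeR adjusted p = 0.0209). Without replicate 1, the library of set A, ctb-1, ctc-1 and ctc-3 were called. With the set term, this difference rests on replicate 1 alone, because the other libraries of the group define the set effect. All 5 genes then lay between -0.08 and -0.05, which describes 1 library and is no test of the group.

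In cbp-1 worms, 4 of the 5 genes were lower than with the empty vector, beside 28.5% of genes called lower, and both groups lie in library set A. The cbp-1 read level itself was 208 ± 2.2 CPM in cbp-1 worms and 269 ± 10.5 with the empty vector (SD, n = 3). Its log2 difference was -0.37 there, and -0.24 and -0.22 in the mixtures against cco-1 and mrps-5 alone, all called. ctb-1 had 703.7, 707.7 and 680.4 CPM, all below the empty vector, and fell by 0.66 ± 0.09 on the log2 scale (edgeR adjusted p = 1.33e-06). ctc-1 had 1072, 1056 and 1065 CPM and fell by 0.63 ± 0.14 (adjusted p = 5.33e-04).

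ctc-2 had 334.1, 336.6 and 320.9 CPM in cbp-1 worms and fell by 0.70 ± 0.07 (edgeR adjusted p = 1.00e-08). ctc-3 had 712.7, 719.8 and 672.7 CPM against 959.2, 920.4 and 913.9 with the empty vector. It fell by 0.41 ± 0.09 (edgeR adjusted p = 7.05e-04). atp-6 had 539.2, 561.0 and 534.9 CPM and was at 601.4, 586.1 and 577.2 with the empty vector. Its difference of -0.11 ± 0.09 did not pass (edgeR adjusted p = 0.310), although the ranges did not overlap, and it passed with only these groups in the fit.

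Mixing cbp-1 into cco-1 was followed by 3 of 5 genes called lower, beside 25.3% of genes. ctb-1 fell by 0.50 ± 0.09 (edgeR adjusted p = 5.24e-05), from 1184, 1237 and 1111 CPM to 798.9, 832.0 and 862.5. ctc-2 fell by 0.40 ± 0.07 (adjusted p = 4.76e-05), from the cco-1 values above to 268.2, 264.6 and 286.6 CPM. ctc-3 fell by 0.28 ± 0.09 (edgeR adjusted p = 0.0169), and its call was lost without cco-1 replicate 2 or without replicate 1 of the mixture. ctc-1 was at -0.26 and atp-6 at -0.09, with adjusted p of 0.130 and 0.465.

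In the mixture of cbp-1 with mrps-5, ctb-1, ctc-2 and ctc-3 were called lower than in mrps-5 worms, again 3 of 5, beside 23.4% of genes. The log2 changes were -0.25 ± 0.09, -0.47 ± 0.07 and -0.29 ± 0.09 (edgeR adjusted p = 0.0208, 5.91e-06 and 0.0150). ctc-1 was at -0.29 and atp-6 at -0.22 (adjusted p = 0.0917 and 0.0511). One library stood apart in this mixture. Replicate 3 had 2021 CPM of ctb-1 against 1660 and 1653 in replicates 1 and 2, and 1312 CPM of atp-6 against 980.8 and 931.3. It was the highest of the 3 for all 5 genes, which held 1.002% of its gene counts against 0.791% and 0.785%. Without it, 4 of 5 were called lower, and atp-6 was at -0.39 ± 0.06 (edgeR adjusted p = 5.56e-07). The count of called genes was 2 without mrps-5 replicate 1, and 1 without mrps-5 replicate 3 or without replicate 1 or 2 of the mixture. With upper-quartile scaling ctc-2 alone was called.

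The change that came with cbp-1 did not differ between the arms for any of the 5 genes at this threshold, beside 5.49% of genes called (edgeR; smallest unadjusted p = 0.0528; DESeq2 called 0 as well). The largest difference between arms was 0.25 ± 0.12, for ctb-1. Without replicate 3 of the mrps-5 mixture, atp-6 was called, at -0.31 ± 0.07 (adjusted p = 0.00923).

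Where atfs-1 was labelled beside cco-1, ctb-1 alone was called, with 972.7, 975.7 and 885.4 CPM and a log2 change of -0.32 ± 0.09 (edgeR adjusted p = 0.0101), beside 11.5% of genes called lower. ctc-1, atp-6, ctc-3 and ctc-2 were at -0.30, -0.18, -0.11 and 0.05. With only the compared groups in the fit, ctc-1 and atp-6 were called as well. The ctb-1 call was lost without cco-1 replicate 2 or without replicate 3 of the mixture.

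Beside mrps-5, the label atfs-1 went with 4 of 5 genes called lower, beside 9.98% of genes. ctb-1 had 1585, 1608 and 1694 CPM and was at -0.38 ± 0.09 (edgeR adjusted p = 0.00314). ctc-2 had 804.7, 770.8 and 781.9 CPM and was at -0.39 ± 0.07 (adjusted p = 1.99e-04). Each of these values was below all mrps-5 libraries. ctc-3 was at -0.34 and atp-6 at -0.40 (edgeR adjusted p = 0.0130 and 0.00352). ctc-1 was at -0.18 (adjusted p = 0.432). The call of ctc-3 was lost without mrps-5 replicate 3. The change with atfs-1 differed between the arms for ctc-2 only, by -0.44 ± 0.10 (edgeR adjusted p = 0.00830), beside 3.49% of genes called. With only the compared groups in the fit, ctc-3 and atp-6 were called too. Both mitochondrial ribosomal RNAs were called higher in each atfs-1-labelled mixture: MTCE.7 by 0.66 beside cco-1 and 0.67 beside mrps-5, and MTCE.33 by 1.098 and 1.09.

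**Figure D4:**
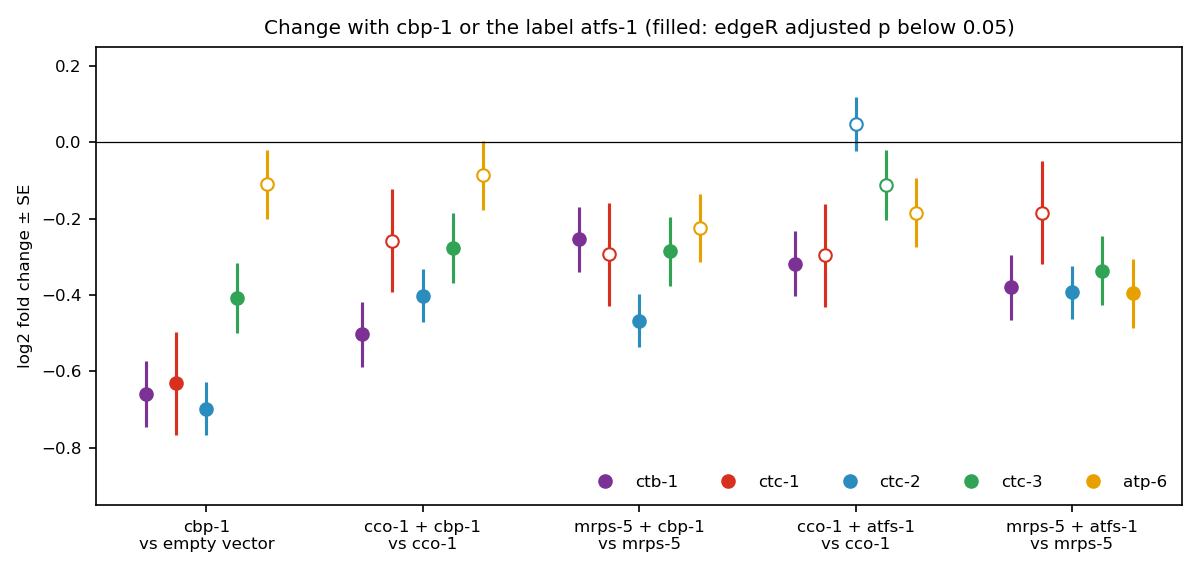
Log2 fold change ± SE (vertical axis) of each of the 5 genes for groups with cbp-1, or mixtures labelled atfs-1, against the group named under each column (atfs-1 alone against the empty vector, which crosses the library sets, is not drawn); filled points passed an edgeR adjusted p of 0.05. All values drawn lie below 0 except ctc-2 where atfs-1 was labelled beside cco-1, at 0.05.

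The nuclear genes listed for the same complexes showed a different split. Besides subunits, the complex IV list holds assembly genes: cox-10, cox-11, cox-15, cox-17, cox-18, cox-19, sco-1 and coa-7. The complex V list also holds the ATPase inhibitor genes mai-1 and mai-2. Between mrps-5 and cco-1 worms, 0 of 11 complex III, 0 of 15 complex IV and 0 of 17 complex V genes were called. Of all genes, 11.8% were called in either direction. The median log2 differences of these lists were 0.07, -0.02 and 0.02. At an unadjusted edgeR p under 0.05 the counts were 2, 1 and 0, and DESeq2 called 0, 1 and 0. The gene of smallest adjusted p was cco-1 itself, at 0.34 ± 0.12 (edgeR adjusted p = 0.0715). Between the cbp-1 mixtures, 3 complex III and 4 complex V genes were lower with mrps-5, and 1 complex IV gene, cco-1, was higher. There 2043 of 16435 genes were called in either direction. Between the atfs-1-labelled mixtures, 1 complex III gene was lower and 2 complex IV genes were higher, beside 2881 of 16435 genes called. In cbp-1 worms, 11 of 11, 13 of 15 and 15 of 17 were lower than with the empty vector, beside 28.5% of all genes. In the mrps-5 mixture with cbp-1, 10, 14 and 15 were lower than with mrps-5, beside 23.4%. In the cco-1 mixture with cbp-1 the counts were 8, 11 and 14, beside 25.3%. In the atfs-1-labelled mixture with cco-1, 2 complex III, 8 complex IV and 2 complex V genes were lower and 1 complex III gene was higher. Of all genes, 11.5% were called lower there, and 3358 of 16435 in either direction. In the atfs-1-labelled mixture with mrps-5, 1, 3 and 2 were lower, beside 9.98% of all genes.

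Of 13 matched genes for maintenance and expression of mitochondrial DNA, 1 was higher in mrps-5 than in cco-1 worms, a share near the 6.74% of all genes called higher. This was hoe-1, a gene for processing of tRNA ends in nucleus and mitochondria, at 0.16 ± 0.04 (edgeR adjusted p = 0.00898). In cbp-1 worms 6 of the 13 were lower, beside 28.5% of all genes, and 1 was higher. In the atfs-1-labelled mixture with cco-1 7 were lower, beside 11.5% of genes, and 6 in that with mrps-5, beside 9.98%. Beside the falls with cbp-1, the summed intestinal marker level was 18192 ± 549 CPM in cbp-1 and 55727 ± 685 CPM in empty vector worms, and 28340 ± 488 CPM in the mrps-5 mixture. It was 17429 ± 112 CPM in the cco-1 mixture with cbp-1, against 30204 ± 1189 in cco-1 worms. Other marker sums also differed between cbp-1 and empty vector worms. Neuron markers were at 616 and 404 CPM, sperm markers at 456 and 329, pharyngeal muscle markers at 554 and 435, and hypodermis markers at 1094 and 1440. All these sums are without TMM factors, which were 1.060 to 1.078 in cbp-1 and 0.918 to 0.939 in empty vector libraries. The part of these measures in the falls was not tested.

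**Figure D5:**
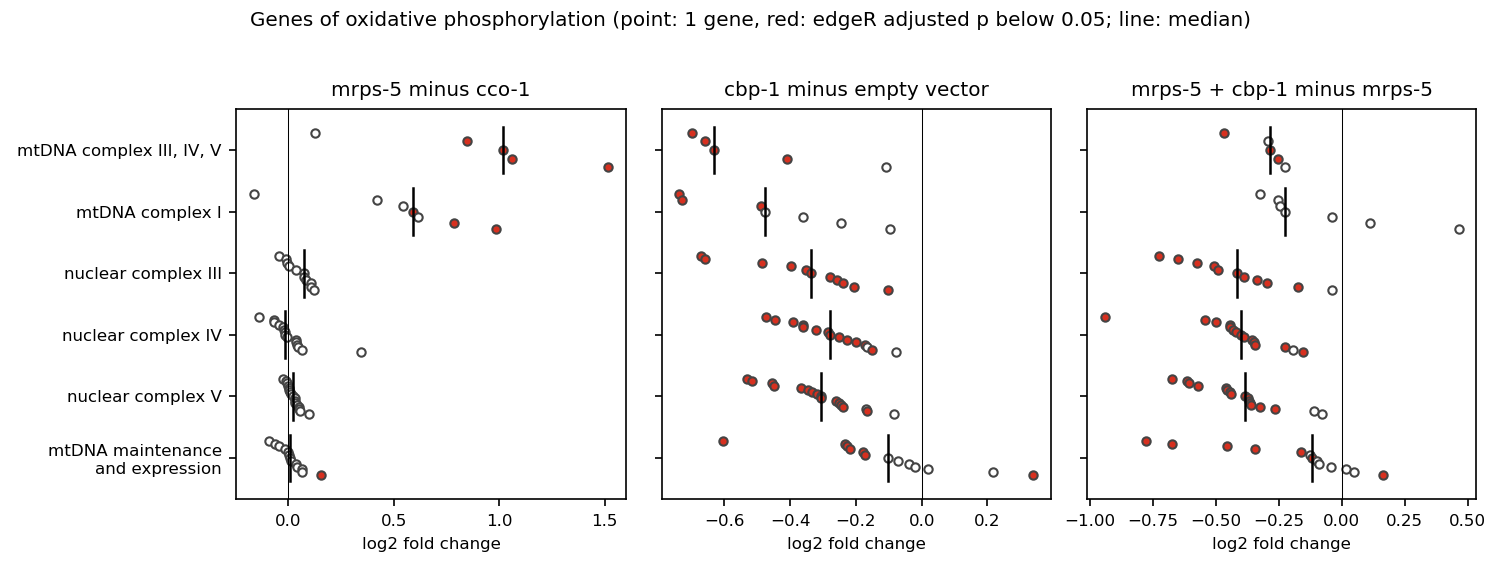
Log2 fold changes (horizontal axis) of single genes (points; red where the edgeR adjusted p was below 0.05) by list, with the list median as a line, for mrps-5 minus cco-1 (left), cbp-1 minus empty vector (middle) and mrps-5 with cbp-1 minus mrps-5 (right). On the left the nuclear lists lie near 0 while 4 of the 5 genes of complexes III, IV and V on mitochondrial DNA lie at 0.85 or above.

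Over the 9 groups, each gene was highest in mrps-5 worms and had the 2 mrps-5 mixtures next, with the exception of ctc-1, where cco-1 worms came after mrps-5. This order joins both library sets, so the place of the empty vector, cbp-1 and atfs-1 groups among the others cannot be told apart from the sets. Among the 6 groups wholly in set B, the lowest was the cco-1 mixture with cbp-1 for ctb-1, ctc-2 and ctc-3 and the cco-1 mixture labelled atfs-1 for ctc-1 and atp-6. In the orders over all 9 groups neighbouring groups overlapped in 4 of 8 steps for ctb-1, 6 of 8 for ctc-1, 4 of 8 for ctc-2, 4 of 8 for ctc-3 and 7 of 8 for atp-6. For atp-6 the only step without overlap was between the mrps-5 mixture labelled atfs-1, at 954 ± 30.2 CPM, and the group labelled atfs-1 at 615 ± 50.7.

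Over the 27 libraries, the likeness of levels was described by Pearson's r of log2 CPM among 9614 genes with a mean of at least 5 CPM. ctb-1 and ctc-3 were most like each other (r = 0.98). Outside mitochondrial DNA, gst-4, a glutathione transferase gene, was nearest to ctb-1 with r = 0.93, C07G1.7 to ctc-2 with r = 0.95 and to atp-6 with 0.88, and osg-1 to ctc-3 with r = 0.93. ctc-1 stood apart, with r of 0.42 to 0.69 to the other 4, and was nearest to Y71G10AL.1 with r = 0.98, while rpl-37, which marks the library sets, was its 4th nearest gene. Within the 20 libraries of set B, its r to the other 4 was 0.60 to 0.71. These libraries share their groups and library sets, so r describes them and carries no test.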

How the data were processed

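The deposited values are raw counts per gene from the authors. The submitters' processing notes name STAR 2.6.0a, HTSeq 0.10.0 and the build WBcel235. Strand settings, read trimming and the statistics of the study are not given in the sources used here. Library sizes and tests leave out the 5 summary lines of the counting tool, which held 8.71% to 17.0% of reads. Columns were matched to groups by their labels.

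Tests used edgeR 4.0.16 in R 4.3.3. After filterByExpr with a minimum count of 10, 16435 genes were tested, all 5 members among them. Counts were scaled by TMM, and 1 robust quasi-likelihood model held all 27 libraries, with a coefficient for each group and no block. Calls were made at an adjusted p below 0.05 (Benjamini-Hochberg, over all genes of the comparison). The common biological coefficient of variation was 4.18%. Gene positions came from the Ensembl annotation of the same build. CPM errors are the SD of 3 libraries. Ratios of members were tested with an exact permutation in Python 3.11.15 and adjusted over 10 pairs. The 5 genes together had 90890 to 274940 counts per library. Replicates of no group agreed within counting noise. This does not show that they came from separate cultures, and each library was counted as 1 sample.

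The 5 members are named in every comparison; complex I and ribosomal RNA genes where a result turns on them; and of each list the genes of smallest adjusted p in mrps-5 minus cco-1. The members, gene lists and this rule were chosen with earlier results of these data known. The marker lists were oocyte, germline, sperm, body wall muscle, pharyngeal muscle, intestine, neuron and hypodermis genes, given as summed CPM without TMM factors. Each had all its matched genes above 0 in every group. Between cco-1 and mrps-5 worms, the lists not given in the results had sums of 12548 and 11665 CPM (oocyte), 362 and 344 (sperm), 473 and 424 (pharyngeal muscle), 456 and 420 (neuron) and 1477 and 1442 (hypodermis). The steps were tested on simulated data with 200 changed genes. Alternatives were RLE, upper-quartile and nuclear-gene scaling, no filter or 5 CPM in 3 libraries, a fit of the compared groups alone, a replicate block, a library-set term, leaving out each library, and DESeq2 1.42.0. No sequence of these genes was used here.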

Additional observations from a re-analysis of the deposited data

Results flagged for a closer look

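One result differed between the 2 mitochondrial clones by a test of the difference itself. The change of ctc-2 where atfs-1 was labelled beside the mitochondrial clone was 0.05 ± 0.07 (log2, SE) in the cco-1 arm and -0.39 ± 0.07 in the mrps-5 arm. The difference was -0.44 ± 0.10 (edgeR interaction term, Benjamini-Hochberg adjusted p = 0.00830). ctc-2 had 372.3, 390.0 and 356.9 CPM in the cco-1 mixture against 369.6, 380.1 and 332.4 with cco-1, so these ranges overlapped. It had 804.7, 770.8 and 781.9 CPM in the mrps-5 mixture, below 1046, 1002 and 1048 with mrps-5 in all 3 libraries. ctc-2 remained called with each of the 12 libraries left out in turn, with differences of -0.48 to -0.38. For ctc-3 and atp-6 the differences were -0.22 and -0.21 and did not pass (adjusted p = 0.643 and 0.673). The atfs-1 read level was higher by 0.18 in the cco-1 mixture and by 0.05 in the mrps-5 mixture than with the mitochondrial clone alone.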

How the results depend on the processing

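The count of members called was the same in mrps-5 against cco-1, in both mixtures and in the average of arms (4 each) under the alternatives run, except that ctc-1 was added, giving 5, with no filter or only the groups compared (not in the cbp-1 mixtures) and, in the average and the atfs-1-labelled mixtures, with the set term. It ranged otherwise as follows. Against the empty vector, the group labelled atfs-1 had 1 member called in the main analysis and 3 with no low-count filter or with DESeq2. It had 0 with only the groups compared, and 0 to 3 leaving out single libraries. The library-set term leaves replicate 1 alone for this comparison, so no count is given for it. For atfs-1 labelled beside cco-1 the count of 1 became 3 with no filter or only the groups compared and 2 with the set term, and 0 to 1 leaving out libraries. For cbp-1 beside mrps-5 the count of 3 became 1 with upper-quartile scaling, 5 with no filter or the set term, and 1 to 4 leaving out libraries. For the cbp-1 difference between arms it was 1 with no filter, and 0 to 1 leaving out libraries. For the atfs-1 difference between arms it was 3 with no filter or only the groups compared. The cause of these changes was not tested.

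Signs turned with the set term in cco-1 against the empty vector for ctb-1 (-0.27) and atp-6 (-0.18), and in the group labelled atfs-1 for ctb-1 (-0.048), ctc-1 (-0.069), ctc-2 (-0.052), ctc-3 (-0.052) and atp-6 (-0.081). With upper-quartile scaling, ctc-3 turned to 0.020 in cco-1 against the empty vector and to 0.012 in the cbp-1 difference between arms. Leaving out single libraries, these uncalled values crossed 0: ctc-3 in cco-1 against the empty vector (-0.053 to 0.059), ctc-2 where atfs-1 was labelled beside cco-1 (-0.011 to 0.085), ctc-1 (-0.12 to 0.0075) and ctc-3 (-0.12 to 0.049) in the cbp-1 difference between arms, and the ctc-3 to atp-6 ratio (-0.013 to 0.017). The 7 called pair ratios were called in each of these runs.

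Deviations of libraries with the same replicate number were nearly uncorrelated (r from -0.08 to 0.06 over 11 comparisons, all under 0.1), and no pairing was used. In cco-1 with atfs-1 against cco-1, all 6 libraries correlated best with their own number. This held for 5 of 6 in cco-1 against the empty vector and between the cbp-1 mixtures, and for 0 to 3 in the others. The check therefore leaves a weak pairing undecided. With a replicate block, 4 members were called in mrps-5 against cco-1, as without it, 1902 genes were called against 1933, and no count of called members changed. With the replicate block in the ratio test, the smallest adjusted p was 0.00558.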
